A study of Zea mays with 9 samples.

Results

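The genes described here are classical maize kernel genes, viewed in the chromatin of root nuclei. They were chosen by name, from a list of 7 identifiers: shrunken1, shrunken2, brittle2, waxy1, amylose extender1 and sugary1 of the starch pathway, and opaque2, a regulator of storage proteins. Of these, 6 had a row among the 38703 genes of the deposited table, and waxy1 (Zm00001d045462), a granule-bound starch synthase gene, was not analysed here. The table gives identifiers without names, so each name rests on the list that defined the set. The rule uses names and no measured value.

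Accessibility was measured by ATAC-seq, which cuts and tags open DNA with a transposase. The nuclei came from frozen roots of seedlings of the maize inbred line B73. The libraries were taken at 0 h, 6 h and 12 h of exposure to tunicamycin, with 3 described as biological replicates at each time. This drug stops proteins from receiving N-linked sugars and so stresses the endoplasmic reticulum. All groups carry the same agent label, at 5 mg per ml in DMSO with no statement of whether this is a stock, and libraries given DMSO alone were not analysed here. The drug and elapsed time therefore cannot be told apart. One label field says protoplasts, while the source and extraction fields say root. The p-values below set differences between times against the spread between these libraries only.

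In the kernel, sucrose delivered by the mother plant is cleaved, turned into ADP-glucose and polymerised into starch, which is then shaped by branching and debranching enzymes. Mutants of these genes give shrunken, brittle or sweet kernels, and several are used in sweet and specialty corn. Storage proteins, mainly zeins, fill the remaining space and are made on the endoplasmic reticulum under transcription factors that include opaque2. Most of these genes are best known from endosperm, although shrunken1 is also transcribed in seedling roots, where low oxygen raises its mRNA. RNA was not part of these data, so coverage here says nothing on transcription.

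All 6 genes had coverage in every one of the 9 libraries, with 0 of 54 values at 0, as did 94.8% of all genes. Coverage is given in read bases after each library was scaled to the mean library total, and is called scaled coverage below. Deposited values piled up on multiples of 73, so 73 is taken as the worth of 1 full read. The kernel genes lay within the bulk of all genes. Their mean scaled coverage over 9 libraries had a median of 918 over the 6 genes, or 12.6 reads, against 803, or 11 reads, over all 38703 genes. By the mean over 9 libraries, 1 kernel gene stood in the highest quartile of all genes, 3 in the next, 2 in the one below and 0 in the lowest quartile. Their median percentile was 58.4, where a higher percentile means more coverage. No source used here states the window counted for each gene or its length, so an order between genes is one of coverage per gene and not per length.

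**Figure D1:**
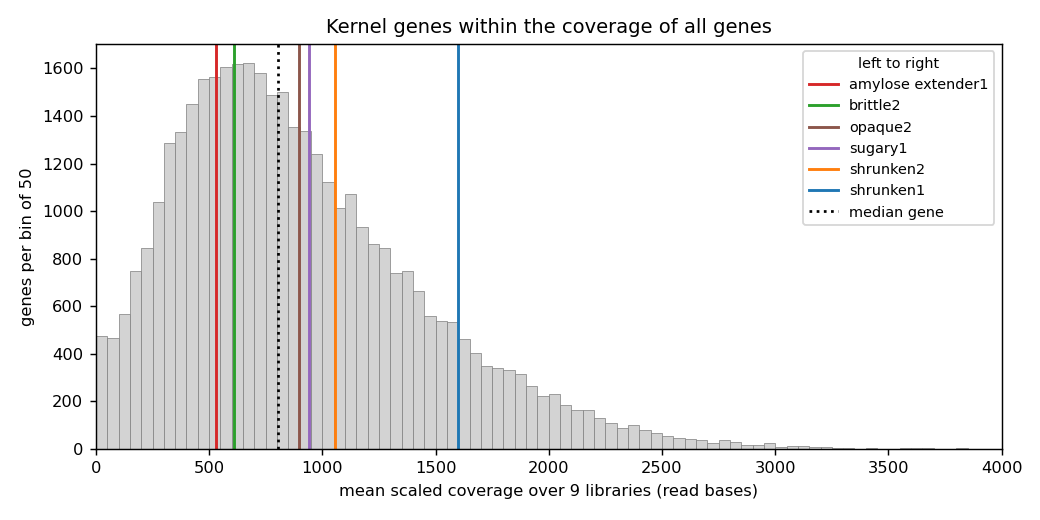
Histogram of mean scaled coverage over 9 libraries (x axis, read bases) for all 38703 genes (y axis, genes per bin of 50), with a coloured line for each of the 6 kernel genes and a dotted line at the median gene; the 8 genes above 4000 are not drawn. The lines run from amylose extender1 at 532 to shrunken1 at 1597, on both sides of the median of 803.

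Shrunken1 (Zm00001d045042), a sucrose synthase gene that acts at the entry of sucrose into starch synthesis, had the highest coverage of the 6. Its scaled coverage was 1539, 1511 and 1938 in the 0 h libraries, 1607, 1635 and 2263 at 6 h, and 1733, 1054 and 1093 at 12 h. Replicates 2 and 3 at 12 h were the lowest of the 9, while replicate 1 at 12 h lay among the earlier libraries. The mean of 1597 ± 377 (SD, n = 9 libraries) ranked 4434 of all genes, at the 88.5 percentile, and was 1.99 times that of the median gene. Within single libraries it stood between the 66.3 and the 97.1 percentile.

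Shrunken2 and brittle2 encode the large and the small subunit of the endosperm ADP-glucose pyrophosphorylase, the enzyme that makes the glucose donor for starch. Shrunken2 (Zm00001d044129) had 874, 1091 and 1022 at 0 h, 1271, 1260 and 940.0 at 6 h, and 842, 1038 and 1171 at 12 h, in scaled coverage. These values were the most even of the set, with a highest library 1.51 times the lowest. Its mean was 1057 ± 156 (SD, n = 9), at the 67.0 percentile. The small-subunit gene brittle2 (Zm00001d050032) had 554, 801 and 463 at 0 h, 448, 539 and 1145 at 6 h, and 451, 701 and 373 at 12 h. Replicate 3 at 6 h stood above the other 8 libraries, at the 71.0 percentile. Brittle2 averaged 608 ± 242 (SD, n = 9), or 8.33 reads, at the 34.1 percentile. The genes of the enzyme's 2 subunits thus differed in coverage per gene, with shrunken2 above brittle2 in 8 of 9 libraries and by 448 ± 323 read bases on average (SD of the difference, n = 9).

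Amylose extender1 and sugary1 act on the branches of amylopectin. Amylose extender1 (Zm00001d016684), the gene of starch branching enzyme IIb, had 356, 567 and 402 at 0 h, 521, 1052 and 313 at 6 h, and 690.3, 490 and 395 at 12 h. The 6 h libraries held both its highest and its lowest value, and the highest was 3.37 times the lowest. Its mean of 532 ± 227 (SD, n = 9), or 7.28 reads, was the lowest of the 6 genes and lay at the 27.8 percentile. Sugary1 (Zm00001d049753), which encodes an isoamylase-type debranching enzyme, had 1095, 1133 and 714 at 0 h, 599, 1175 and 702 at 6 h, and 1161, 965 and 934 at 12 h. Its lowest and its highest library were again both at 6 h. The mean was 942 ± 221 (SD, n = 9), at the 60.0 percentile.

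Opaque2 (Zm00001d018971), a bZIP transcription factor gene whose product activates zein genes in endosperm, had a mean of 895 ± 192 (SD, n = 9), at the 56.8 percentile. Its scaled coverage was 782, 1191 and 1104 at 0 h, 586, 787 and 1053 at 6 h, and 786, 827 and 937 at 12 h. The 12 h values were close together and lay inside the range of both earlier times.

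**Figure D2:**
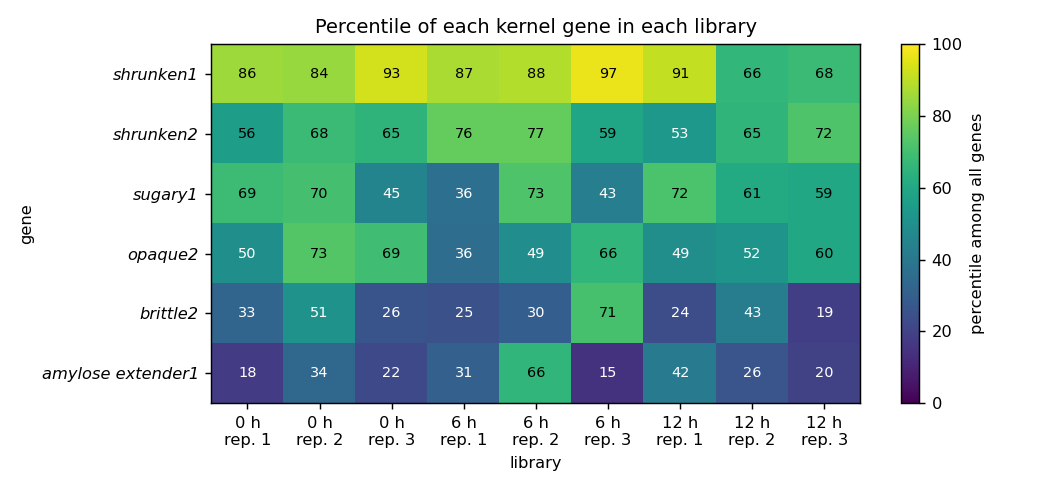
Percentile of each kernel gene (rows, from highest to lowest mean coverage) among all 38703 genes in each of the 9 libraries (columns), where a higher percentile means more coverage; the colour repeats the printed value. Shrunken1 stays in the upper part of the scale in each library, between 66.3 and 97.1, while brittle2 and amylose extender1 move by 52.5 and 51.2 points.

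The order of mean coverage was shrunken1, shrunken2, sugary1, opaque2, brittle2 and amylose extender1. Shrunken1 lay above each of the 4 lowest genes in 9 of 9 libraries and above shrunken2 in 8 of 9. The 3 middle genes could not be put in order, since shrunken2 exceeded sugary1 in 6 of 9 libraries, by 115 ± 297 (SD of the difference), and sugary1 exceeded opaque2 in 5 of 9, by 47.2 ± 289. Brittle2 and amylose extender1 likewise traded places, with brittle2 higher in 5 of 9 libraries, by 76.8 ± 372. A gap was seen between these pairs of neighbours, as opaque2 exceeded brittle2 in 8 of 9 libraries, by 286 ± 227.

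**Figure D3:**
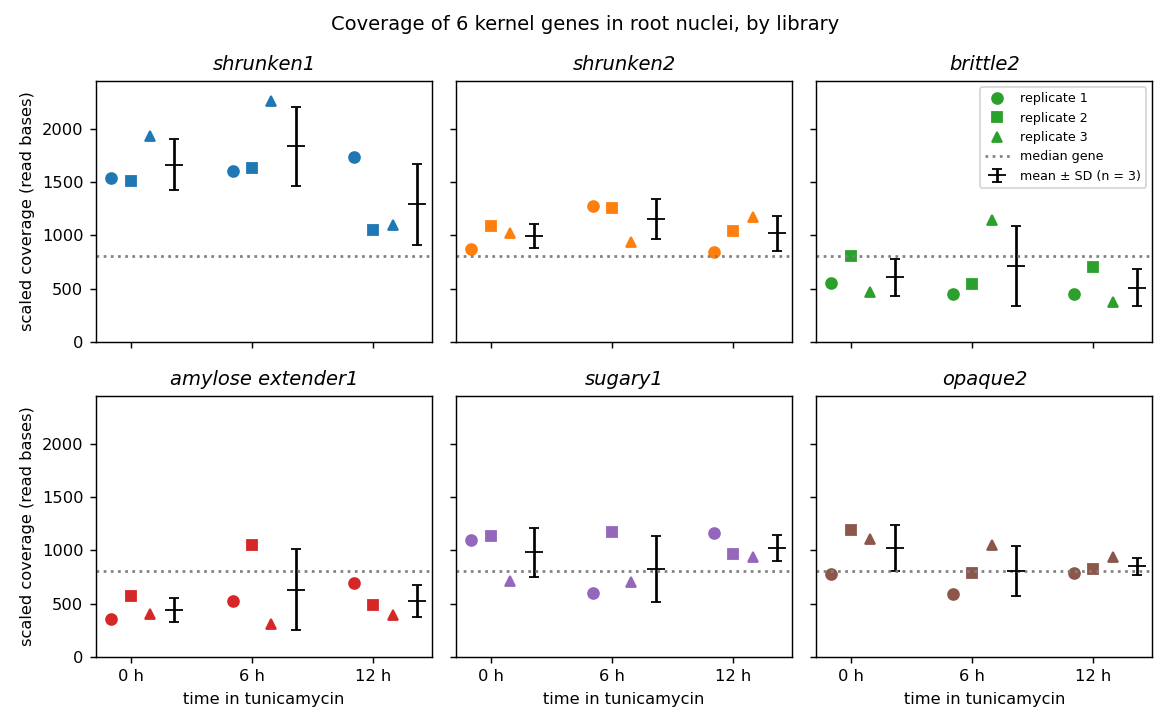
Scaled coverage (y axis, read bases) of the 6 kernel genes at 0 h, 6 h and 12 h in tunicamycin (x axis), 1 panel per gene, with a symbol per library, a black bar for the mean ± SD of 3 libraries, and a dotted line at the median gene. The 3 times overlap in each panel, and single libraries such as brittle2 at 1145 and amylose extender1 at 1052, both at 6 h, set the wide bars.

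The first question was whether 6 h of tunicamycin altered accessibility at these genes. No kernel gene passed the threshold of 0.05 on the adjusted p, from a limma fit across all genes with Benjamini-Hochberg adjustment. Over all genes the same test called 0%, and 6.03% had an unadjusted p under 0.05, against 0 of 6 kernel genes. Opaque2 had the lowest limma p of the 6, with 809 ± 235 at 6 h and 1025 ± 216 at 0 h (SD, n = 3 libraries each), a log2 change of -0.36 (SE 0.32, adjusted p = 0.907). On a linear scale the 95% interval of that change ran from 0.498 to 1.22 times the 0 h coverage. The log2 change of opaque2 was -0.15 without 6 h replicate 1, -0.57 without 6 h replicate 3 and -0.54 without 0 h replicate 1. For amylose extender1 the means were 629 ± 381 at 6 h and 441 ± 111 at 0 h, a log2 change of 0.36 (SE 0.46, limma adjusted p = 0.942). Its 6 h mean rests on replicate 2, and without that library the log2 change was -0.10.

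Shrunken1 had 1835 ± 371 at 6 h and 1663 ± 239 at 0 h, and shrunken2 had 1157 ± 188 at 6 h and 996 ± 111 at 0 h (SD, n = 3 each). Their log2 changes of 0.13 and 0.21 were smaller than their standard errors of 0.24 and 0.28. Brittle2 averaged 711 ± 379 at 6 h and 606 ± 175 at 0 h, and sugary1 826 ± 307 at 6 h and 981 ± 232 at 0 h. For brittle2, the log2 change of 0.14 had a 95% interval from 0.611 to 2.00 times the 0 h coverage, and it was -0.26 without replicate 3 at 6 h. Of the 6 genes, 4 had a log2 change above 0 and 2 below, with a median of 0.14. Over all genes the median was 0.003, and 49.5% of genes had a change below 0.

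Persistent exposure was asked about by setting 12 h against 0 h. Again 0 of 6 kernel genes passed, with 0% of all genes called and 5.12% at an unadjusted p under 0.05, which no kernel gene reached. Shrunken1 came nearest, at 1293 ± 381 at 12 h and 1663 ± 239 at 0 h (SD, n = 3 each), a log2 change of -0.39 (SE 0.24, limma adjusted p = 0.951, 95% interval -0.89 to 0.10). At 12 h its mean coverage ranked at the 78.6 percentile, and at 0 h at the 89.2 percentile. The smallest change was that of shrunken2, with 1017 ± 166 at 12 h and 996 ± 111 at 0 h, a log2 change of 0.02 with an interval of -0.55 to 0.60.

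For the other 4 genes the 95% intervals of the change at 12 h all included 0. Brittle2 had 509 ± 171 at 12 h and 606 ± 175 at 0 h, and amylose extender1 had 525 ± 151 at 12 h and 441 ± 111 at 0 h. Sugary1 had 1020 ± 123 at 12 h and 981 ± 232 at 0 h, and opaque2 had 850.4 ± 78.2 at 12 h and 1025 ± 216 at 0 h. The log2 changes of these 4 genes were -0.27, 0.24, 0.08 and -0.25, in the order named. Over the 6 genes, 3 changes were above 0 and 3 below, with a median of -0.11. Over all genes the median was 0.01, and 48.7% of changes were below 0. Both comparisons share the 0 h libraries, so like signs in them are not separate evidence.

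Between 12 h and 6 h, shrunken1 had the only unadjusted p under 0.05 among the 18 member tests. Its means were 1293 ± 381 at 12 h and 1835 ± 371 at 6 h (SD, n = 3 each), a ratio of 0.695 on the fitted scale. The log2 change was -0.52 (SE 0.24, 95% interval -1.02 to -0.03), with an unadjusted limma p of 0.0384 and an adjusted p of 0.770. In this comparison limma called 0% of all genes and 6.34% had an unadjusted p under 0.05, and with 6 kernel genes a single one at that level is no result about the set. The unadjusted limma p of shrunken1 was 0.187 without 6 h replicate 3, 0.146 without 12 h replicate 2, 0.125 without 12 h replicate 3 and 0.00733 without 12 h replicate 1, and 0.0869 with moderation without trend. Its interval therefore includes 0 under 4 of these 5 settings. Under every other setting, and with any other library left out, the unadjusted limma p stayed under 0.05, from 0.0314 to 0.0427. The adjusted limma p of shrunken1 was 0.646 or more in all of these runs. The libraries of the 2 times overlapped, since replicate 1 at 12 h, at 1733, lay above 2 of the 3 at 6 h. Sugary1 had 1020 ± 123 at 12 h and 826 ± 307 at 6 h, a log2 change of 0.36 (SE 0.32, limma adjusted p = 0.886). The remaining 4 genes had log2 changes between -0.41 for brittle2 and 0.11 for opaque2. That of brittle2 was -0.00245 without 6 h replicate 3 and -0.68 without 6 h replicate 1. In all, 4 of the 6 changes were below 0, as were 48.8% over all genes.

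**Figure D4:**
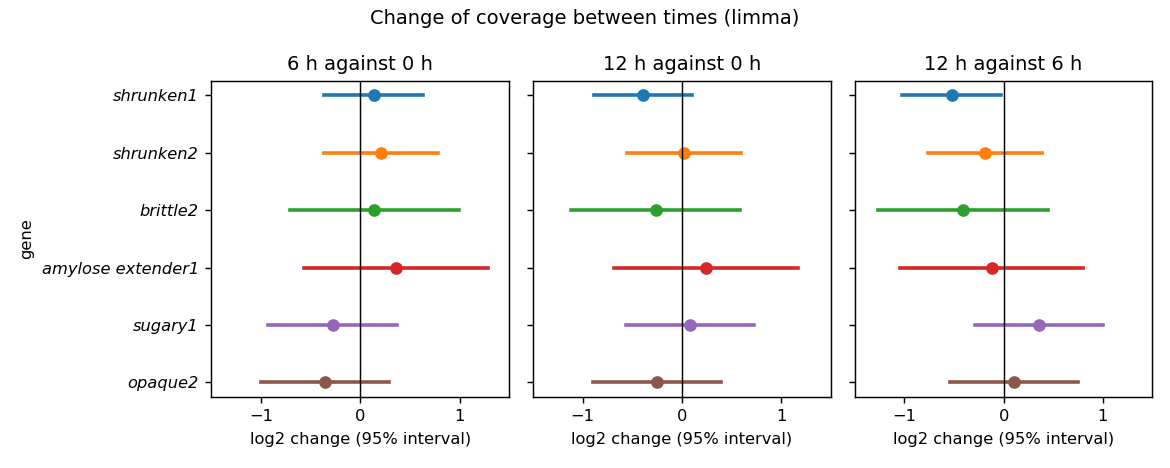
Log2 change of scaled coverage (x axis) for the 6 kernel genes (rows) in 3 comparisons (panels), as points with 95% intervals from limma. All intervals include 0 except that of shrunken1 for 12 h against 6 h, which ends at -0.03 and has an adjusted p of 0.770.

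No kernel gene had libraries of one time all above or all below those of another, in any of the 3 comparisons. Across all genes, 11% of 38703 showed such a split in either direction for 6 h against 0 h, 11.2% for 12 h against 0 h and 11.2% for 12 h against 6 h. For a difference at any time, limma gave 0 of 6 kernel genes an unadjusted p under 0.05, against 5.89% of all genes. Tested over all 280 splits of 9 libraries into 3 groups of 3, shrunken1 had an exact permutation p of 0.229 (adjusted over all genes 0.912). The other exact permutation p-values ran from 0.400 for opaque2 to 0.768 for amylose extender1. Of all genes, 5.68% had an exact p under 0.05, and 0 passed after adjustment. The smallest p these splits can give is 0.00357.

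The spread between libraries was set beside that of read sampling. If reads of 73 bases were drawn independently, sampling alone would give shrunken1 an SD of 341 between libraries, and the SD measured within times was 337. The ratio of measured to sampling SD was 0.57 for shrunken2, 0.74 for opaque2, 0.89 for sugary1 and 0.99 for shrunken1. In brittle2 and amylose extender1, the genes with the fewest reads, it was 1.24 for each. Each measured SD rests on few libraries per time, and neither the ratios nor their differences were tested. Of the 54 values of the kernel genes, 7 were multiples of 73, so the sampling SD is approximate. Among genes within 10% of its mean coverage, shrunken2 was more even than most, with a coefficient of variation of 14.8% against a median of 24.6%, and 4.31% of those genes had a lower one. Brittle2 and amylose extender1 had 39.8% and 42.8%, against medians of 32.5% and 34.8% at their own levels.

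**Figure D5:**
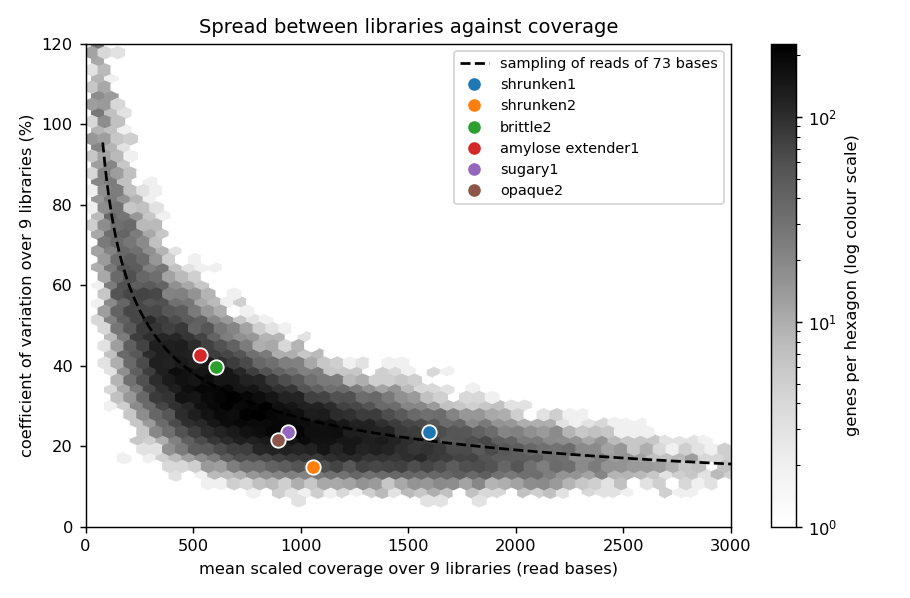
Coefficient of variation over 9 libraries (y axis, percent) against mean scaled coverage (x axis, read bases), with all genes as grey hexagons, the 6 kernel genes as coloured points and a dashed line for the sampling of independent reads of 73 bases. Amylose extender1 and brittle2, with the least coverage, had the largest values, 42.8% at a coverage of 532 and 39.8% at 608. Among the other kernel genes the values did not fall with coverage. They were 21.5% at 895 for opaque2, 23.4% at 942 for sugary1, 14.8% at 1057 for shrunken2 and 23.6% at 1597 for shrunken1.

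As a set, the kernel genes held a near average share of coverage. The 6 genes took 149, 180.3 and 162 read bases per megabase of all coverage in the 0 h libraries, 144, 185 and 184 at 6 h, and 162, 145 and 140.5 at 12 h. An equal share for each gene in the table would give 155 read bases per megabase. The means were 164 ± 15.8 at 0 h, 171 ± 23.1 at 6 h and 149 ± 11.4 at 12 h (SD, n = 3 each), and the ranges of the 3 times overlapped.

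The 6 genes did not move together over the libraries. Among their 15 pairs, Pearson's r of log2 scaled coverage over the 9 libraries ran from -0.33 to 0.51 with a median of -0.08, and 6 pairs were positive. The pyrophosphorylase pair, shrunken2 and brittle2, had an r of -0.25, and amylose extender1 with sugary1 had the highest. These values describe 9 shared libraries with few reads per gene. The most alike profile of each gene was looked up among the genes of mean coverage 730 or more. A best match out of so many genes over 9 libraries is high for any gene, and each of the 6 had between 4 and 16 genes with an r of 0.9 or more, so these matches are listed as a description only. For opaque2 the most alike of 21542 such genes was Zm00001d008580 (r = 0.98), for brittle2 Zm00001d050907 (r = 0.97), for sugary1 Zm00001d029247 (r = 0.97) and for shrunken1 Zm00001d030400 (r = 0.95). For amylose extender1 it was Zm00001d038074 (r = 0.95) and for shrunken2 Zm00001d018377 (r = 0.94).

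Coverage was also set beside that of neighbouring rows, 3 on each side in the order of the table, a comparison chosen after the values were seen and with genome positions not used here. Amylose extender1, at 532, lay below all 6 of its neighbouring rows, whose means ran from 867 to 1630. Shrunken1 exceeded 5 of 6, against means from 168 to 1776 in those rows. Shrunken2 and sugary1 also exceeded 5 of 6 rows, brittle2 4 and opaque2 2. No kernel gene had 9 values equal to those of another gene, while 165 genes in the table did.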

How the data were processed

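The authors deposited 1 table of whole-number coverage signal per gene for 9 libraries, with 0 columns of no sample. Cutadapt 1.11, Bowtie2 2.2.6, MACS2 and DESeq2 are named with no roles, per the submitters' processing notes. No source used here states the genome build, gene windows, read shift or duplicate removal; a wide window or duplicates would add coverage. The value 73 occurred 5648 times, against a mean of 45.6 for its 10 nearest values, and 18.8% of values above 0 were multiples of it, so the values were taken as read bases and no count test was run. Library totals over the genes were 35.0 to 39.1 megabases at 0 h, 28.9 to 33.1 at 6 h and 35.8 to 36.8 at 12 h. Each 6 h library thus had a lower total than any library of the other times, and what this does to the 6 h comparisons was not tested. Divided by 73, the totals equal 396306 to 536001 full reads over the genes, which is not the number of reads sequenced. PCR copies cannot be told apart.

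Coverage was divided by the column total over its mean, put on the log2(value + 1) scale, which distorts low values, and fitted with limma 3.58.1 in R 4.3.3 (trended, robust) over 9 libraries and 38703 genes, without a filter. P-values are two-sided. The fit was tested on simulated data. In limma, the spread of each gene was pooled over all times and moderated toward that of genes of like coverage. Ranks and permutations used Python 3.11.15. Named genes are the listed kernel genes and, for each, the gene of mean coverage 730 or more with the highest correlation over 9 libraries. Members, lists and tests were chosen with earlier results of these data known. The reference table matched 0 identifiers, so the planned lists of other starch, storage, root and stress genes, flanking genes, lengths and sequences were not used here. The root label was therefore not checked against markers. Same-numbered libraries did not deviate together (r from -0.01 to 0.01 over 9 pairs).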

Additional observations from a re-analysis of the deposited data

How the results depend on the processing

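No kernel gene passed the threshold under any alternative run. The settings were other scalings (trimmed mean of M values, median of ratios), a pseudocount of 73, a minimum mean of 730 and a square-root scale. A replicate block and limma moderation without trend were also run, the last chosen after seeing the data. Over these settings all 120 values for the kernel genes kept their direction, with limma adjusted p of 0.646 or more. The minimum mean, the block and the moderation leave a gene's log2 change as it was, so their values could not turn direction. The block changed no call, and same-numbered libraries share only a number. The number of all genes called by limma was 0 with the replicate block in each comparison. It was 1, 2, 1 and 1 on the square-root scale for 6 h against 0 h, 12 h against 0 h, 12 h against 6 h and any time, and 7, 7, 8 and 11 without trend. It was 1 at any time with a mean of 730 or more, where fewer genes were tested, and between 0 and 1 with a library left out for 6 h against 0 h and for any time, the 1 without 6 h replicate 1. With the minimum mean, 0 genes were called in the other comparisons. The cause of these differences in calls was not tested.

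Leaving out each library turned the direction of 11 of 162 values for the kernel genes, all far from the threshold (lowest limma adjusted p over the 162 values 0.673). The 162 values include runs without a library of the time not compared, where the log2 change cannot move. For 6 h against 0 h the log2 change ran from -0.0274 to 0.248 for shrunken1, -0.263 to 0.412 for brittle2, -0.571 to -0.148 for opaque2 and -0.0996 to 0.774 for amylose extender1. For 12 h against 0 h it ran from -0.0848 to 0.153 for shrunken2 and -0.134 to 0.199 for sugary1. For 12 h against 6 h it ran from -0.535 to 0.339 for amylose extender1, -0.103 to 0.32 for opaque2, -0.678 to -0.00245 for brittle2 and -0.755 to -0.364 for shrunken1. Percentiles among all genes moved by less than their spread between libraries, with the median in place of the mean and leaving out each library (22.7 to 30.1 for amylose extender1, 86.3 to 90.1 for shrunken1). Dropping a single library moves a mean far less than libraries differ, so the runs with a library left out say little on how stable the ranks are. Coverage per kilobase was not run, since no gene had a length. The kernel genes held 7.28 to 21.9 reads per library on average, and what deeper libraries would show was not tested.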
